A study of Mus musculus with 4 samples.

Results

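The NRF2 antioxidant pathway was followed through 10 named genes: the transcription factor gene Nfe2l2, its inhibitor gene Keap1, and 8 classic targets, Nqo1, Hmox1, Gclc, Gclm, Txnrd1, Srxn1, Slc7a11 and G6pdx. They were chosen by name as classic members of the pathway, with earlier results of these data known. All 10 were found among the 22079 gene identifiers of the deposited table. RNA was measured by mRNA sequencing in primary hepatocytes, the parenchymal cells of the liver, taken from the livers of 8-week-old male C57BL/6 mice. The Prom1-/- group (KO), which lacks the membrane glycoprotein gene Prom1, and the wild-type group (WT) had 2 biological replicates each. In both groups the cells first attached in a medium with serum and dexamethasone, a synthetic glucocorticoid, and were then kept without serum overnight; the labels name no oxidant or NRF2 activator. The labels do not say how the knockout was made, so a whole-body deletion and a deletion in hepatocytes cannot be told apart here.

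NRF2, the protein of Nfe2l2, is made continuously in most cells and destroyed continuously. KEAP1 binds it in the cytoplasm and presents it to the CUL3 ubiquitin ligase, and oxidants or electrophiles that modify cysteines of KEAP1 stop this, so that NRF2 accumulates, pairs with a small MAF protein and binds antioxidant response elements in DNA. Control of the pathway therefore lies largely in protein stability, and the mRNA of the targets is the usual readout of its activity. In liver the targets make glutathione, reduce thioredoxin and quinones, break down heme and supply NADPH, the reducing power that the reductases among them use.

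The element that NRF2 and its MAF partner bind has a core of TGAC or TGAG, 3 bases of any kind, and GC. RefSeq promoter windows of build GRCm38.p6, from 250 bases before to 50 bases after an annotated start, were matched for 8 of the 10 genes and gave 10 windows, 3 of them for Txnrd1. Both strands were searched for TGACNNNGC and TGAGNNNGC. TGACNNNGC occurred in 5 of the 10 windows, from 5 genes, while 12.4% of all 32851 windows held it. TGAGNNNGC occurred in 2 of the 10, against 17.6% of all windows. The windows of Srxn1 and Gclm are shown whole, because Srxn1 held the most matches (3) and Gclm codes for the regulatory subunit of glutathione synthesis. Capitals mark each match in the orientation of the gene, so a match on the opposite strand reads as its reverse complement.
Srxn1 (chr2:152105274-152105573, plus strand): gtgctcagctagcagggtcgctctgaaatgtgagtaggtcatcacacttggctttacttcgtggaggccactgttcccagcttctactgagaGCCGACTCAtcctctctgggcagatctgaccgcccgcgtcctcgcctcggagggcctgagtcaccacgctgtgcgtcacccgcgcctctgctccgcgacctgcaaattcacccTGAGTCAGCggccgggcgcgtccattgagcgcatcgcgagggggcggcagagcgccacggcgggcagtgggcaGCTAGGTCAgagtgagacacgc
Gclm (chr3:122245307-122245606, plus strand): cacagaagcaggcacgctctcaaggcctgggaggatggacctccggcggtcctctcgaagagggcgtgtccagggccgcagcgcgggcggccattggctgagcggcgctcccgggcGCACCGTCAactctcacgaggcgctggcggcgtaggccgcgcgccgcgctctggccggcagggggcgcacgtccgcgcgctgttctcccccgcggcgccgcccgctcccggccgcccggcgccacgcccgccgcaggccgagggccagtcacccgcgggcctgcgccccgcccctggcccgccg

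The remaining matches are shown with up to 20 bases on each side, to let their cores be compared. The match of Nfe2l2 begins 240 bases before the start, that of Txnrd1 92 bases before the second of its starts, that of G6pdx 57 bases before and that of Slc7a11 97 bases before. The bases that follow the Nfe2l2 start were not found in a GENCODE M21 transcript of the gene, so its distance depends on the RefSeq start. For the other windows they were found.
Nfe2l2 (chr2:75704875-75704913, minus strand): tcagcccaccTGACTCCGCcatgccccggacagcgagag
Txnrd1 (chr10:82859094-82859142, plus strand): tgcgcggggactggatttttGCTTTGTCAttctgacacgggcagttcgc
G6pdx (chrX:74428909-74428957, minus strand): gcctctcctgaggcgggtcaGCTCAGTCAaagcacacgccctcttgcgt
Slc7a11 (chr3:50443682-50443730, minus strand): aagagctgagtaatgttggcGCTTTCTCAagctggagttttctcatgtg

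The core TGAGTCAGC of Srxn1, 45 bases before its start, also contains the AP-1 motif TGAGTCA, and no other match overlapped that motif. No match was found in the windows of Keap1 or Nqo1, which says only that these letters are not in them, and Gclc and Hmox1 had no matched window. A match describes letters, not binding, which was not measured here.

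**Figure D1:**
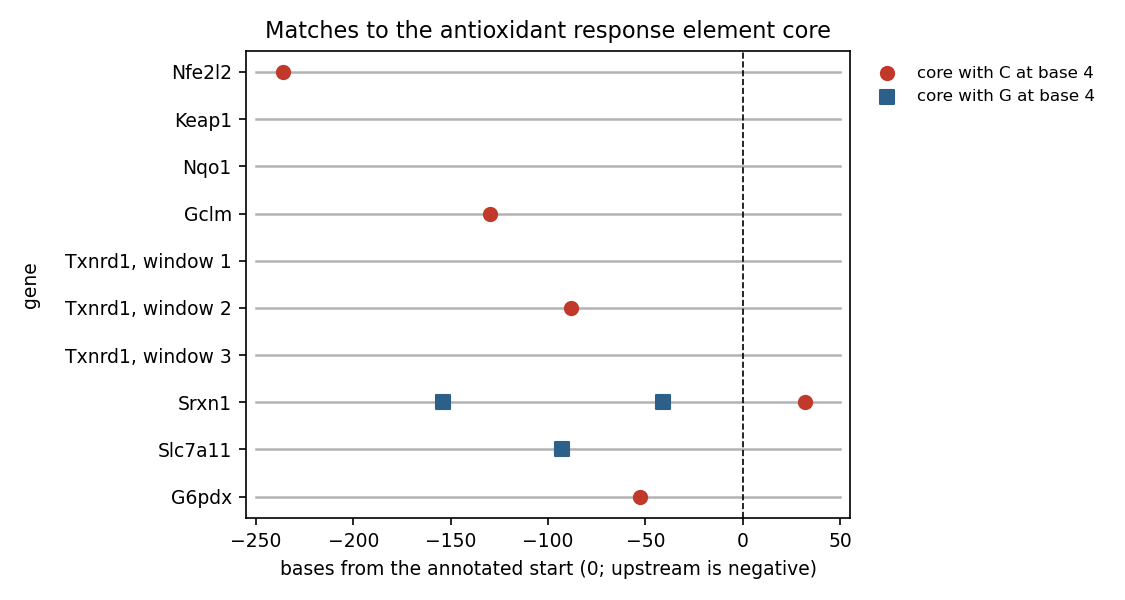
Positions of matches to the antioxidant response element core in 10 promoter windows of 8 genes, in bases from the annotated start, with upstream negative. Circles mark the core that starts with TGAC and squares the core that starts with TGAG, and Srxn1 holds 3 matches.

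Prom1 stood at 0 (listed) and 0.0458 FPKM in KO 1 and KO 2, against 0.571 and 1.22 FPKM in WT 1 and WT 2, which follows the labels. FPKM is fragments per kilobase of transcript, scaled to the size of the library. The libraries were estimated from the steps of low values to hold roughly 14400000 to 19600000 fragments. Hepatocyte markers were high in all libraries except for Alb, listed at 0 in the WT 2 library and at 25551 to 32670 FPKM in the other libraries, and 7 other hepatocyte markers summed to 8231 and 8909 FPKM in KO 1 and KO 2, against 8124 and 9475 FPKM in WT 1 and WT 2. Markers of other liver cells were present at lower levels. Those of sinusoidal endothelium (10 of 10 above 0 in every library) summed to 86.2 and 45.0 FPKM in KO 1 and KO 2, against 60.8 and 58.9 FPKM in WT 1 and WT 2. Those of stellate cells (10 of 10) summed to 27.1 and 12.4 FPKM in KO, against 16.5 and 18.3 FPKM in WT, and those of macrophages (10 of 10) to 433 and 501 FPKM in KO, against 380.5 and 377 FPKM in WT. Most of the macrophage sum was Cd68, and the 9 other macrophage markers summed to 40.2 and 35.5 FPKM in KO, against 23.2 and 26.5 FPKM in WT. Among them Marco, a scavenger receptor of liver macrophages, had 6.28 and 5.70 FPKM in KO 1 and KO 2, against 2.54 and 3.14 FPKM in WT 1 and WT 2 (log2 difference 0.87, adjusted p = 0.47 by limma), and Lyz2 (0.85) and Cd5l (0.70) were likewise higher in KO without overlap (adjusted p = 0.518 and 0.519 by limma). Of the 9 macrophage markers tested, Cd68 included, 7 were higher and 2 lower in KO. KO lay above WT without overlap for 5 of them (18.3% of all genes tested) and below for 1 (19.8%), C1qa (-0.14). C1qb (-0.04), Csf1r (0.05) and Clec4f (0.02) had overlapping groups. Hnf4a, a hepatocyte transcription factor gene, had 64.9 and 59.5 FPKM in KO 1 and KO 2, against 90.4 and 95.8 FPKM in WT 1 and WT 2 (log2 difference -0.58, adjusted p = 0.47 by limma), and Tat differed by -0.30 without overlap (adjusted p = 0.614 by limma). Of the 8 hepatocyte markers, 6 were lower and 2, Alb and Apob, higher in KO. KO lay below WT without overlap for 2 (19.8% of all genes tested) and above for 1 (18.3%), Apob (0.22). Apoa1 (-0.02), Ttr (-0.04), Asgr1 (-0.02) and Cps1 (-0.61) had overlapping groups. The part of these marker levels in the results that follow was not tested. For the summed endothelial and stellate markers the KO libraries lay at opposite ends, with both WT libraries between them. Not every marker did so. Reln, of the stellate list, had 2.79 and 2.33 FPKM in KO, against 3.47 and 5.65 FPKM in WT. Pecam1 and Cdh5, of the endothelial list, were highest in WT 2. Dcn held much of the stellate sum, at 17.5 and 7.02 FPKM in KO, against 8.31 and 8.39 FPKM in WT. Only 4 of the 10 stellate markers averaged 1 FPKM or more. In such bulk libraries, fewer cells of a type and less RNA per cell cannot be told apart.

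By the title and design of the study, the question is what Prom1 deficiency does to hepatocyte RNA in serum-free culture. None of the 10 NRF2 genes passed the test. By limma on log2(FPKM + 1), 0 of 10 had a Benjamini-Hochberg adjusted p under 0.05, as had 0 of all 10407 genes tested (0%). At an unadjusted p under 0.05 the count was also 0 of 10, while 7.29% of all genes passed that mark. Under single alternatives 4 members passed it: Keap1 without the filter on low values (unadjusted p = 0.0363, adjusted p = 0.755 by limma), Gclc and G6pdx without KO 1 (G6pdx unadjusted p = 0.0169, adjusted p = 0.493 by limma; Gclc as given with its values) and Slc7a11 without KO 2 (unadjusted p = 0.0115, adjusted p = 0.287 by limma). The log2 differences (KO minus WT) of the 10 genes ran from -0.36 for Gclc to 0.26 for Slc7a11, and their adjusted p-values by limma from 0.687 to 0.981. The value was lower in KO for 8 genes and higher for 2, with a median of -0.14, against a median of 0.00, 50.3% lower and 49.7% higher among all genes tested. For 4 of the 10, both KO libraries lay on the same side of both WT libraries, and 38.1% of all genes did so. KO was below WT for 3 of them (19.8% of all genes) and above for 1 (18.3%). The group means of 3 genes, Keap1, Nqo1 and Srxn1, were further apart than either pair of replicates, which held for 25.3% of all genes tested. With 2 libraries against 2, an exact permutation test cannot give a two-sided p below 0.33.

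**Figure D2:**
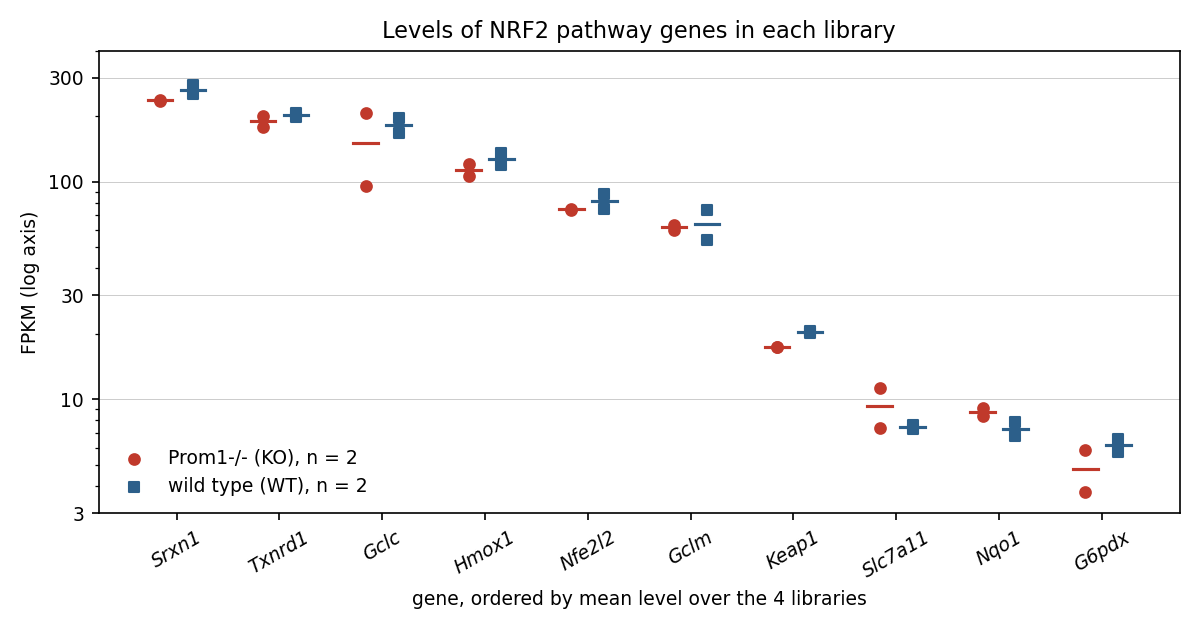
FPKM of each gene in each library on a log axis, with KO circles left of WT squares and a bar at each group mean (n = 2 each). Levels span from 3.76 FPKM for G6pdx in KO 2 to 277 FPKM for Srxn1 in WT 1, and single KO libraries stand apart for Gclc (KO 2, 95.9 FPKM), Slc7a11 (KO 1, 11.3 FPKM) and G6pdx (KO 2, 3.76 FPKM).

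Nfe2l2 and Keap1, the regulators, both had slightly lower values in KO. Nfe2l2 (ENSMUSG00000015839, chr2:75675513-75704641, minus strand) had 74.4 and 74.8 FPKM in KO 1 and KO 2, against 87.5 and 75.1 FPKM in WT 1 and WT 2. Both KO libraries were below both WT libraries, but KO 2 and WT 2 were nearly equal. The log2 difference was -0.12 (SE 0.11, 95% interval -0.39 to 0.16), and it was -0.01 without WT 1.

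Keap1 (ENSMUSG00000003308, chr9:21229730-21239361, minus strand), the substrate adaptor that carries NRF2 to degradation, had 17.3 and 17.4 FPKM in KO 1 and KO 2, against 20.7 and 20.2 FPKM in WT 1 and WT 2. The groups did not overlap, and the replicates of each were tighter than the step between them: 17.4 ± 0.0889 FPKM in KO and 20.4 ± 0.313 FPKM in WT (SD, n = 2 each). Its log2 difference of -0.22 (SE 0.10, 95% interval -0.46 to 0.02) had the lowest limma p of the 10 genes, 0.0633 unadjusted and 0.687 adjusted. It was also the steadiest, at -0.24 to -0.21 with any 1 library left out. An antisense transcript, Gm16754, overlaps an exon of Keap1 by 206 bases, and the strand setting of the counting is not given, so reads of the pair could not be told apart.

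Glutathione synthesis begins with glutamate-cysteine ligase, whose catalytic subunit is coded by Gclc and whose modifier subunit, which raises its efficiency, by Gclm. Gclc (ENSMUSG00000032350, chr9:77754535-77794485, plus strand) had 206 and 95.9 FPKM in KO 1 and KO 2, against 167 and 196 FPKM in WT 1 and WT 2. The KO replicates therefore held both the highest and the lowest of the 4 values and differed 2.15-fold from each other, while the WT replicates differed 1.17-fold. On the log2 scale the gap between the KO libraries was 1.10, wider than for 99.3% of genes tested. The value in KO 2 rests on roughly 4449 fragments, which puts its counting error near 0.02 on the log2 scale. The log2 difference was -0.36 (SE 0.34, 95% interval -1.19 to 0.47), and its direction turned with the library left out: 0.19 without KO 2 and -0.91 without KO 1. Without KO 1, which leaves KO 2 alone and assumes that it varies like the other libraries, limma gave Gclc an unadjusted p of 0.000527 and an adjusted p of 0.172, where its adjusted p over all alternatives ran from 0.172 to 1.

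Gclm (ENSMUSG00000028124, chr3:122245557-122270732, plus strand) had 60.1 and 63.5 FPKM in KO 1 and KO 2, against 54.2 and 73.8 FPKM in WT 1 and WT 2. Both KO values lay between the WT values, and the log2 difference was -0.03 (SE 0.16, 95% interval -0.42 to 0.35), turning to 0.18 without WT 2. The ratio of Gclc to Gclm, both in FPKM, was 3.43 and 1.51 in KO 1 and KO 2, against 3.08 and 2.65 in WT 1 and WT 2, so the low Gclc of KO 2 was not shared by its partner subunit. A processed pseudogene (Gm6061) on the same strand and an opposite-strand transcript (Gm17494) overlap exons of Gclm.

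Slc7a11 (ENSMUSG00000027737, chr3:49892526-50443614, minus strand) codes for the cystine carrier that imports the cysteine of glutathione, and is a target of ATF4 as well as of NRF2. It had 11.3 and 7.38 FPKM in KO 1 and KO 2, against 7.60 and 7.31 FPKM in WT 1 and WT 2. Only KO 1 stood apart, and the groups overlapped. The log2 difference was 0.26 (SE 0.20, 95% interval -0.22 to 0.74), 0.54 without KO 2 and -0.01 without KO 1, so the value rested on KO 1. The sums of endothelial and stellate markers were also highest in KO 1 (86.2 and 27.1 FPKM) and lowest in KO 2 (45.0 and 12.4 FPKM). Gclc had its highest value in KO 1 and its lowest in KO 2, as these sums did. Slc7a11 did not share the low end: its lowest value was in WT 2 (7.31 FPKM), next to KO 2 (7.38 FPKM). The part of these markers in the values of Slc7a11 or Gclc was not tested.

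**Figure D3:**
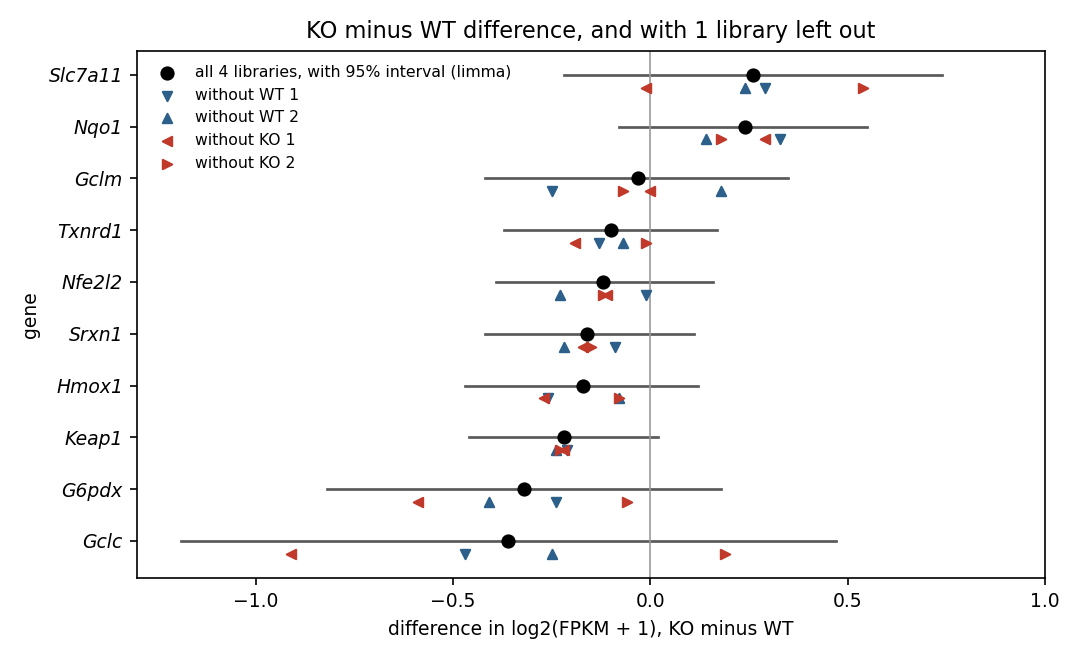
KO minus WT difference in log2(FPKM + 1) for each gene: black circles with 95% limma intervals use all 4 libraries, and triangles leave out 1 library. Every interval includes 0, and Gclc moves from -0.91 to 0.19 with the KO library that is left out, while Keap1 stays between -0.24 and -0.21.

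Srxn1 and Txnrd1, of the thioredoxin arm, had the highest mean levels of the 10 genes. Srxn1 (ENSMUSG00000032802, chr2:152105516-152111376, plus strand), coding for sulfiredoxin, which repairs overoxidized peroxiredoxins, had 238 and 236 FPKM in KO 1 and KO 2, against 277 and 253 FPKM in WT 1 and WT 2. The groups did not overlap and the KO libraries were nearly equal, with a log2 difference of -0.16 (SE 0.11, 95% interval -0.42 to 0.11) that was -0.09 without WT 1 and -0.10 after quantile normalization. Txnrd1 (ENSMUSG00000020250, chr10:82833951-82897712, plus strand), the cytosolic thioredoxin reductase that uses NADPH, had 201 and 178 FPKM in KO 1 and KO 2, against 199 and 207 FPKM in WT 1 and WT 2. Here the groups overlapped, only KO 2 was below the others, and the log2 difference of -0.10 (SE 0.11, 95% interval -0.37 to 0.17) was -0.01 without KO 2.

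Nqo1 and Hmox1, the targets most often used as reporters of NRF2, had values on opposite sides of 0. Nqo1 (ENSMUSG00000003849, chr8:107388225-107403206, minus strand), a quinone reductase, had 8.40 and 9.16 FPKM in KO 1 and KO 2, against 7.85 and 6.78 FPKM in WT 1 and WT 2. It was the 1 gene of the 10 with both KO libraries above both WT libraries, the side on which 18.3% of all genes lay. Its log2 difference was 0.24 (SE 0.13, 95% interval -0.08 to 0.55), with a limma p of 0.12 unadjusted and 0.733 adjusted, and it ran from 0.14 to 0.33 with 1 library left out. At this low level its values rest on roughly 143 to 208 fragments, a counting error of about 0.10 to 0.12 on the log2 scale in each library.

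Hmox1 (ENSMUSG00000005413, chr8:75093621-75100589, plus strand), heme oxygenase 1, opens the heme ring and is also repressed by BACH1. It had 120.2 and 106 FPKM in KO 1 and KO 2, against 119.6 and 136 FPKM in WT 1 and WT 2. KO 1 and WT 1 were level, so the groups overlapped, and the log2 difference was -0.17 (SE 0.12, 95% interval -0.47 to 0.12). It was -0.08 without WT 2 or without KO 2, and -0.27 without KO 1.

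G6pdx (ENSMUSG00000031400, chrX:74409483-74429194, minus strand) codes for glucose-6-phosphate dehydrogenase, the NADPH-producing entry step of the pentose phosphate pathway, and was the least abundant of the 10. It had 5.85 and 3.76 FPKM in KO 1 and KO 2, against 6.59 and 5.73 FPKM in WT 1 and WT 2. KO 2 alone was low, and KO 1 lay within the WT range. The log2 difference was -0.32 (SE 0.20, 95% interval -0.82 to 0.18), -0.06 without KO 2 and -0.59 without KO 1. An exon of G6pdx overlaps Ikbkg on the opposite strand by 278 bases, and Ikbkg was far more abundant, at 77.6 and 82.5 FPKM in KO 1 and KO 2, against 79.1 and 81.0 FPKM in WT 1 and WT 2. The autosomal copy G6pd2 stayed at or under 0.105 FPKM in every library.

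Across libraries, KO 2 held the lowest value for 5 of the 10 genes: Hmox1, Gclc, Txnrd1, Srxn1 and G6pdx. WT 1 held the highest value for 4, WT 2 for 3, KO 1 for 2 and KO 2 for 1, Nqo1. Relative to each gene's mean over the 4 libraries, the median of the 10 on the log2 scale was 0.02 in KO 1 and -0.12 in KO 2, against 0.04 in WT 1 and 0.08 in WT 2. The lowest median was that of KO 2, which was also the library with the lowest endothelial (45.0 FPKM) and stellate (12.4 FPKM) marker sums and the lowest sum of 7 bile duct markers (28.3 FPKM, against 41.6 FPKM in KO 1 and 41.6 and 37.4 FPKM in WT 1 and WT 2); their part in it was not tested. The median log2 difference of the 10 genes stayed below 0 with any 1 library left out, at -0.18 to -0.07.

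**Figure D4:**
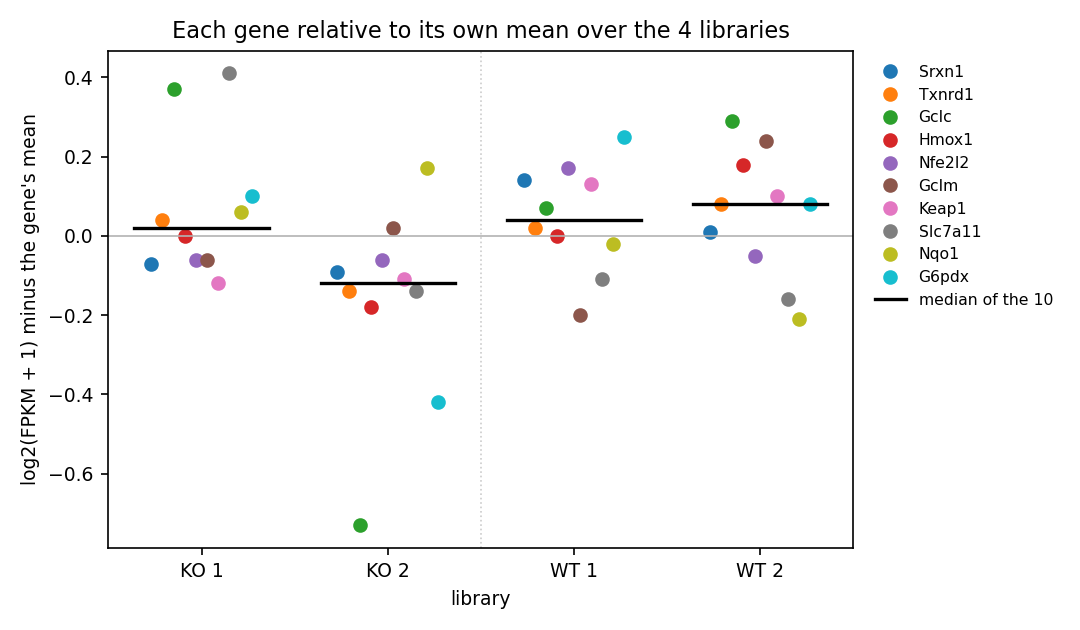
log2(FPKM + 1) of each of the 10 genes minus its own mean over the 4 libraries, by library, with a black bar at the median. The bar is at 0.02 and -0.12 in KO 1 and KO 2, against 0.04 and 0.08 in WT 1 and WT 2, and Gclc, at 0.37 and -0.73, gives the widest gap between the KO libraries.

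By level, in FPKM averaged over the 4 libraries, the order was Srxn1 (251), Txnrd1 (196), Gclc (166), Hmox1 (120.3), Nfe2l2 (78.0), Gclm (62.9), Keap1 (18.9), Slc7a11 (8.39), Nqo1 (8.05) and G6pdx (5.48). The ranges of Txnrd1 and Gclc, of Gclc and Hmox1, and of Slc7a11 and Nqo1 overlapped over the 4 libraries, so these neighbours were not separated by their spread. The other neighbours in that order had separate ranges. Srxn1 stood above 97.4% of genes tested and G6pdx above 26.4%. The genes whose pattern over the 4 libraries was most like the median of the 10 were Tbc1d13, Zfp688, Gigyf1, Pi4k2a and Arfgap2, with Pearson r of 0.9989 to 0.9997. Over only 4 points, 193 of 7716 genes reached an r of 0.95. Within the 10 genes, r with their own median ran from 0.98 for Txnrd1 to -0.87 for Nqo1.

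The wider antioxidant system was read from 8 lists of 90 other genes, of which 86 were tested. By limma, 0 of the 86 passed the adjusted threshold, and 8 had an unadjusted p under 0.05 (9.3%, against 7.29% of all genes), 3 higher (Cth, Mgst3 and Gstt1; 3.1% of all genes were) and 5 lower in KO (Oplah, Txnip, H6pd, Cbr1 and Ugdh; 4.19% of all genes were). Both KO libraries lay on the same side of both WT libraries for 33 (38.4%, against 38.1% of all genes), 18 above and 15 below. Both shares were near those of all genes.

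Of 14 regulators of NRF2, 7 had a higher and 7 a lower value in KO (median log2 difference -0.02). By limma, 0 passed at an unadjusted p under 0.05, against 7.29% of all genes tested. Groups did not overlap for 7 of the 14 (38.1% of all genes), 5 with KO above WT (18.3%) and 2 with KO below (19.8%). Sqstm1, the autophagy receptor p62 that can bind KEAP1 and is itself an NRF2 target, had 1726 and 1449 FPKM in KO 1 and KO 2, against 1387 and 1144 FPKM in WT 1 and WT 2. The groups did not overlap, with a log2 difference of 0.33 (SE 0.18, adjusted p = 0.731 by limma) that was 0.19 without WT 2 and 0.20 without KO 1. Bach1, which competes with NRF2 for the same elements, had 14.2 and 12.8 FPKM in KO 1 and KO 2, against 15.4 and 18.3 FPKM in WT 1 and WT 2, a log2 difference of -0.30 (SE 0.13, adjusted p = 0.687 by limma), and -0.18 without WT 2. The related factor gene Nfe2l1 differed by 0.22, and by 0.11 without WT 2. The ligase scaffold gene Cul3 (-0.06) and the partner genes Maff (0.01), Mafg (-0.10) and Mafk (0.04) had overlapping groups.

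Of 13 genes of glutathione supply and recycling, 6 were higher and 7 lower (median -0.05). The largest log2 differences were those of the plasma glutathione peroxidase gene Gpx3 (-0.53), the 5-oxoprolinase gene Oplah (-0.51) and the glutaredoxin gene Glrx (-0.38). Without KO 2 the difference of Gpx3 was -0.18, and without WT 2 that of Glrx was -0.19. Oplah, which returns glutamate from the glutathione cycle, had 14.4 and 17.0 FPKM in KO 1 and KO 2, against 20.9 and 24.5 FPKM in WT 1 and WT 2, without overlap (adjusted p = 0.562 by limma). Of 13 glutathione S-transferase genes tested, 11 were higher and 2 lower, with a median of 0.18 that turned to -0.08 without WT 2 and to -0.04 without KO 2. Mgst3 (0.47), Gstp2 (-0.38) and Gstt1 (0.35) had the largest differences. Groups did not overlap for 2 of the 13, Mgst3 and Gstt1, against 38.1% of all genes tested. Both had KO above WT, as had 18.3% of all genes. Without WT 2, Gstp2 stood at -0.10 and Gstt1 at 0.21. The alpha, mu and pi classes have near-identical copies, so their values are uncertain to the extent that reads were shared among them.

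Of 11 thioredoxin and peroxiredoxin genes, 7 were higher and 4 lower (median 0.05). Txnip, the inhibitor of thioredoxin, had 4.37 and 2.34 FPKM in KO 1 and KO 2, against 5.01 and 6.17 FPKM in WT 1 and WT 2, with a log2 difference of -0.63 (adjusted p = 0.682 by limma) that was -0.29 without KO 2. The mitochondrial thioredoxin gene Txn2 (0.22) and the mitochondrial peroxiredoxin gene Prdx3 (0.16, but 0.02 without WT 2) followed. Of 9 genes of NADPH supply and the pentose phosphate pathway, 7 were higher and 2 lower (median 0.09, and -0.07 without KO 1), with Rpia at 0.36 (0.16 without KO 2), H6pd at -0.35 (-0.21 without WT 2) and the transketolase gene Tkt at 0.21. With all libraries, the direction of G6pdx (-0.32) was not that of most genes on this list. Without KO 1, G6pdx (-0.59) and the list median were both negative, and without KO 2 G6pdx was -0.06.

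Of 15 tested genes of detoxification and efflux, 7 were higher and 8 lower (median 0.00). The efflux pump gene Abcc4 had 4.10 and 2.06 FPKM in KO 1 and KO 2, against 2.03 and 1.21 FPKM in WT 1 and WT 2 (log2 difference 0.61, and 0.24 without KO 1). Cyp2a5 differed by -0.49, which was -0.06 without KO 1. The carbonyl reductase gene Cbr1 had 36.1 and 42.9 FPKM in KO 1 and KO 2, against 50.2 and 56.0 FPKM in WT 1 and WT 2, a log2 difference of -0.42 (adjusted p = 0.579 by limma). Of 8 heme and iron genes, 5 were higher and 3 lower (median 0.00), and the largest differences were those of Abcb6 (-0.15), Fech (-0.14) and Hmox2 (-0.14), of which Abcb6 turned to 0.05 without WT 2, Fech was -0.04 without KO 1 and Hmox2 -0.04 without WT 1. The 3 tested genes of superoxide and peroxide removal were all lower: Sod2 by -0.23, Sod1 by -0.21 and Cat by -0.18 on the log2 scale, with adjusted p-values by limma of 0.758 to 0.819. Without KO 1, Sod2 stood at -0.01, Sod1 at -0.03 and Cat at -0.11, a median of -0.03 in place of -0.21.

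**Figure D5:**
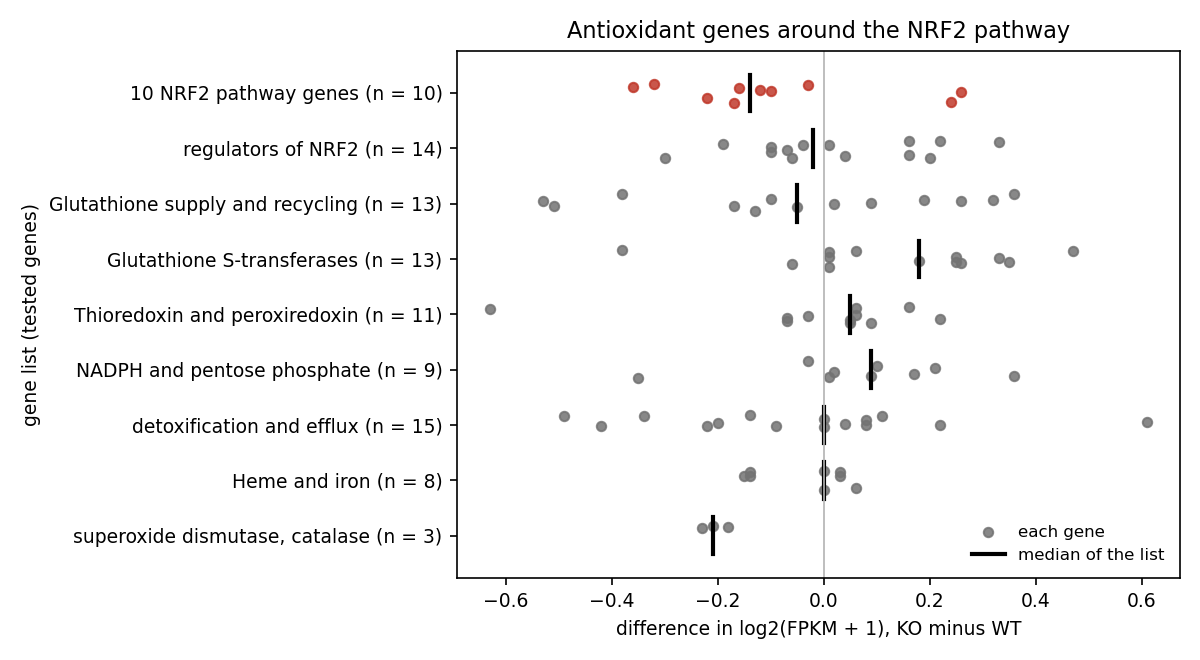
KO minus WT difference in log2(FPKM + 1) of each tested gene in the 10 NRF2 pathway genes (red) and in 8 further lists (grey), with a black bar at each median. The medians lie between -0.21 and 0.18, and single genes reach from -0.63 for Txnip to 0.61 for Abcc4.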

How the data were processed

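The authors deposited 1 table with 1 value per gene and library. It was read as FPKM from its non-whole values and the tools that the submitters name, since no header states the unit. Per the submitters' processing notes, STAR 2.5.0, Cufflinks, Cuffdiff 2.2.1 and build mm10 were used, with no role or order. Per the labels' protocols, the library kit (TruSeq mRNA) keeps strand; the strand setting of the counting is not given in the sources used here. Identifiers were matched to GENCODE M21 symbols (21984 of 22079) and columns to samples by title. No other per-sample column was present (0).

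The 10407 genes whose 4 libraries averaged 1 FPKM or more were transformed as log2(FPKM + 1), which understates the change of low genes, and compared with limma 3.58.1 in R 4.3.3 (intensity trend, genotype as the only term, two-sided, Benjamini-Hochberg over all genes, threshold 0.05). Prom1 lay under that filter. Depth was estimated from the periodicity of low values in genes with 1 transcript, assuming 200-base fragments; 35.8% to 39.4% of those values lay within 0.1 of a whole fragment, so whole reads were not recovered, and depths and counting errors are rough. The fit was also run on simulated data with independent normal noise and changes larger than those of the NRF2 genes. That run does not bear on differences of their size.

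The members and lists were chosen with earlier results of these data known. Named genes are the 10 members, Prom1, up to 3 tested genes per list with the largest absolute difference, and the 5 most similar patterns. Cul3, Maff, Mafg, Mafk, Cth, Ugdh and all cell marker genes given by name were named after their values were seen. Gm16754, Gm6061, Gm17494, Ikbkg and G6pd2 were named for overlapping or resembling a member. Lists are described by counts and medians, without a set test. Alternatives were other pseudocounts, filters, scalings and moderation, a replicate block, and each library left out. Whether replicates shared a preparation day is not stated, so p-values measure the spread between these libraries.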

Additional observations from a re-analysis of the deposited data

How the results depend on the processing

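Across pseudocounts of 0.1 and 0.5, no filter and a filter at 5 FPKM, median ratio and quantile scaling, moderation without a trend and robust moderation, 0 genes passed the adjusted threshold by limma and all 10 NRF2 genes kept their direction. Under these settings 4 of the 10 had groups that did not overlap, except after quantile scaling, where 3 had, against 39.1% of all genes. With a library left out, genes called ranged from 0 to 8 (8 without WT 1, 5 without KO 1), none of them among the 10, and genes at an unadjusted p under 0.05 from 318 (without WT 2) to 1227 (without KO 2), against 759 with all libraries. Those fits leave 1 library alone in its group. They turned the direction of Gclm (-0.25 to 0.18; 0.18 without WT 2, 0.00 without KO 1), Slc7a11 (-0.01 to 0.54; -0.01 without KO 1) and Gclc (-0.91 to 0.19; 0.19 without KO 2). Separation of the 2 groups is easier with 3 libraries: 6 to 8 of the 10 genes were then apart, against 62.1% to 74.3% of all genes. The median of the 10 ranged from -0.18 to -0.07. With the replicate block, 0 genes were called, 1054 had an unadjusted p under 0.05, and the lowest adjusted p among the 10 was 0.546 (Keap1). Same-numbered libraries deviated together with r = 0.151 over genes in 2 pairs, and the labels give the numbers no meaning, so they were not taken as pairs. Depth limits Nqo1 and G6pdx most.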
